A study of Mus musculus with 28 samples.

Results

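This account concerns the liver transcriptome of wild type mice given WY-14643, set against wild type mice given the carrier alone. Its members are 14 of the 28 libraries in the series, chosen by the labels: 7 wild type vehicle animals and 7 wild type WY-14643 animals, with 1 liver library each. All animals were of the 129svj strain and 11 to 13 months old. The vehicle group received 0.5% carboxymethylcellulose by oral gavage, and the treated group received WY-14643 at 50 mg/kg in that carrier. Livers were taken 12 h after the single gavage and flash frozen. The other 14 libraries came from SIRT6 heterozygotes of that strain and age, 7 per treatment. They entered the fit, where they share the estimate of the spread, and 1 test of whether the genotypes responded differently. The labels give neither the sex of the animals nor how the Sirt6 allele was made, and 1 dose was sampled at 1 time. Every vehicle library stands in 1 deposited table and every WY-14643 library in another, so treatment and table cannot be told apart.

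WY-14643 is a synthetic ligand of PPARa, a nuclear receptor abundant in hepatocytes. In fasting, fatty acids released from fat tissue activate this receptor, which pairs with a retinoid X receptor, binds DNA at a direct repeat of a short half-site, and raises transcription of genes for fatty acid uptake, oxidation in mitochondria and peroxisomes, and ketone body synthesis. In rodents, longer treatment with such ligands enlarges the liver and multiplies peroxisomes.

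Levels are given as CPM, the counts of a gene scaled to a common library size. A change is the log2 fold change of WY-14643 over vehicle with its standard error, from edgeR's quasi-likelihood test. A gene was called when its Benjamini-Hochberg adjusted p over the 12607 tested genes was under 0.05. Gene counts per library ran from 16626530 to 19539233 in the vehicle group and from 15795201 to 18337517 in the WY-14643 group. Sirt6 (GRCm38 chromosome 10, 81621785 to 81627797) lay between 1.91 and 3.53 CPM in wild type vehicle animals and between 0.882 and 1.38 CPM in heterozygous vehicle animals, and between 2.27 and 4.18 CPM against 1.29 and 2.29 CPM after WY-14643. The genotypes did not overlap under vehicle. After WY-14643 the highest heterozygote lay just above the lowest wild type animal. Reads that fell in no annotated gene took 8.45 ± 0.114% of the reads in the vehicle table and 6.75 ± 0.321% in the WY-14643 table (SD, n = 7 each, exact two-sided permutation test, p = 0.000583, the smallest that 7 against 7 can give).

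The response was broad. WY-14643 raised 3454 genes (27.4% of those tested) and lowered 3361 (26.7%), and the median log2 fold change of all tested genes was -0.02. Changes of at least 1 on the log2 scale were fewer, with 275 genes raised (2.18%) and 350 lowered (2.78%). In 1977 genes (15.7%) every treated animal lay above every vehicle animal, and in 1521 genes (12.1%) every treated animal lay below. Counts of list members below are to be read against these shares. The first principal component of the 14 libraries held 63.5% of the variance of 9171 genes and separated the treatments. Vehicle animals 31 and 37 stood apart from the other vehicle animals on both axes, with second component scores of 19.3 and 12.0 against -14.1 to -1.59 for the other 5. Removing these 2 animals left 3243 genes higher and 3060 lower.

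**Figure D1:**
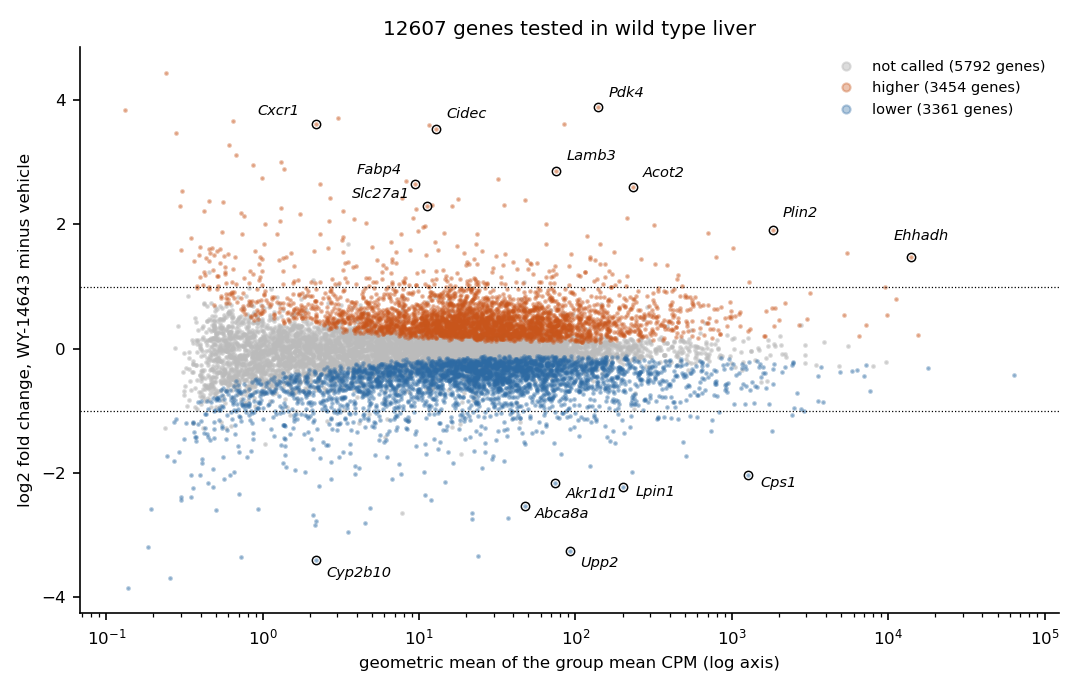
Each point is 1 of 12607 tested genes in wild type liver, with the geometric mean of the group mean CPM on a log axis (horizontal) and the log2 fold change of WY-14643 minus vehicle (vertical). The 3454 higher calls and 3361 lower calls cover the whole range of levels, and dotted lines mark a log2 fold change of 1 and -1.

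Of 12 textbook PPARa targets, all of which passed the filter on low counts, 10 rose, none fell, and the median log2 fold change was 0.95. In 9 of the 12, no treated animal overlapped a vehicle animal. Pdk4, the kinase that shuts pyruvate dehydrogenase in fasting, had the greatest change of the 12. Its gene lies on GRCm38 chromosome 6, 5483351 to 5496309. Pdk4 stood at 4.85 CPM in the lowest, 22.0 CPM in the median and 73.6 CPM in the highest vehicle animal, and at 263, 536 and 921 CPM in the corresponding treated animals. All 7 treated animals exceeded all 7 vehicle animals (log2 fold change 3.89 ± 0.59, adjusted p = 4.95e-06), a 14.8-fold rise. The value moved to 4.62 without vehicle animals 74, 76 and 78, and to 3.28 with only those 3 as vehicle.

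**Figure D2:**
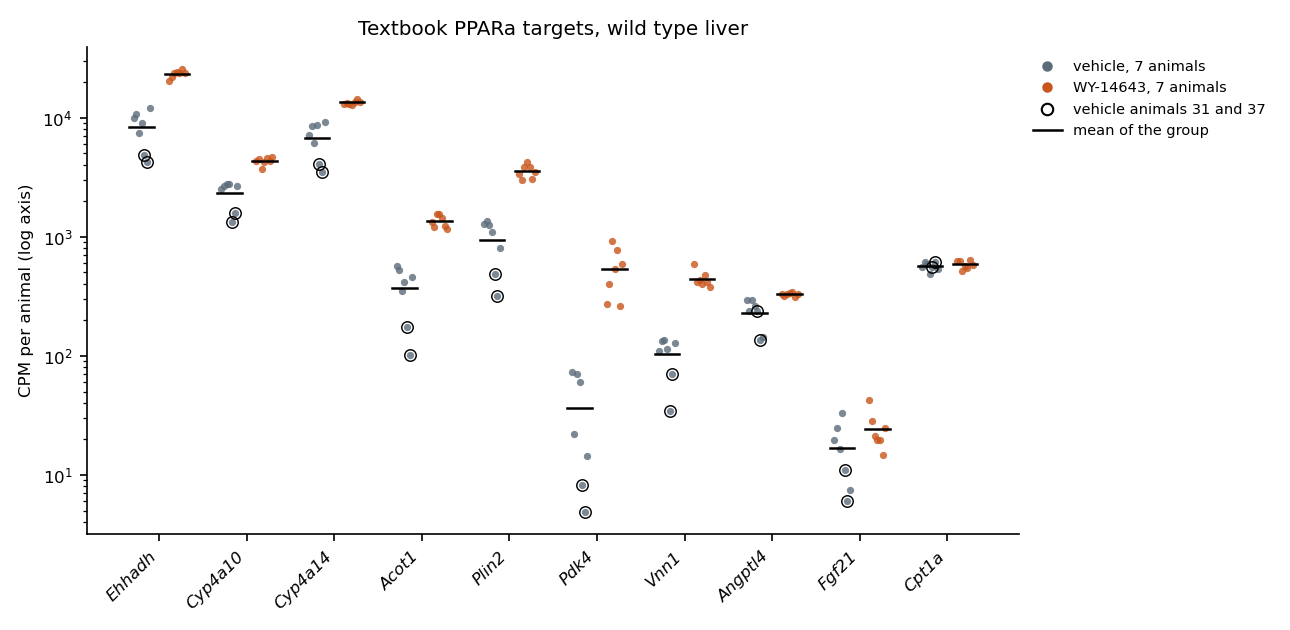
CPM of 10 of the 12 textbook targets in each of 14 wild type animals, on a log axis, with a black line at the group mean. Grey points are vehicle animals and orange points treated animals, and black rings mark vehicle animals 31 and 37, the lowest pair for 7 of the 10 genes.

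Ehhadh, the bifunctional enzyme of peroxisomal beta-oxidation, lay at 4196, 9042 and 12128 CPM (lowest, median, highest) under vehicle and at 20364, 23646 and 25509 CPM after treatment (log2 fold change 1.48 ± 0.26, adjusted p = 2.07e-05). The gene was abundant without the drug, and the groups did not overlap. Plin2, which coats lipid droplets, lay between 319.7 and 1360.1 CPM (median 1089 CPM) in vehicle animals and between 2984 and 4225 CPM (median 3482 CPM) in treated animals, a 3.78-fold rise (adjusted p = 2.05e-06). Vnn1, a pantetheinase, lay between 34.2 and 135 CPM (median 114 CPM) under vehicle and between 377 and 589.6 CPM (median 418 CPM) after WY-14643 (2.10 ± 0.43, adjusted p = 0.000222). Here too the groups were fully separate.

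The microsomal omega-hydroxylases Cyp4a14 and Cyp4a10 rose less than Pdk4 or Plin2 on the log2 scale. Cyp4a14 lay at 3469 to 9110.3 CPM (median 7201 CPM) in vehicle animals and at 12791 to 14253 CPM (median 13379 CPM) in treated animals (1.00 ± 0.30, adjusted p = 0.00626). Cyp4a10 lay at 1335 to 2759 CPM (median 2655 CPM) and at 3699.6 to 4690.0 CPM (median 4330.3 CPM), in the same order (0.90 ± 0.25, adjusted p = 0.00315). With only 74, 76 and 78 as vehicle, neither gene passed, with adjusted p = 0.0695 for Cyp4a14 and 0.0763 for Cyp4a10. The Cyp4a genes are near-identical neighbours, and reads that could not be placed uniquely were not counted for any gene, so the levels of single members are partial and uncertain.

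Angptl4, a secreted inhibitor of lipoprotein lipase, lay between 135 and 296 CPM under vehicle and between 314 and 341 CPM after treatment (0.52 ± 0.14, adjusted p = 0.00201). The treated animals fell in a narrow band above every vehicle animal. Its call was lost with only animals 74, 76 and 78 as vehicle (0.25, adjusted p = 0.0788).

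Cpt1a and Fgf21 did not pass. Cpt1a, the gate of mitochondrial fatty acid entry, lay between 490.0 and 617 CPM under vehicle and between 513 and 635 CPM after WY-14643 (0.05 ± 0.08, adjusted p = 0.647). The groups overlapped almost completely. Fgf21, a fasting hormone secreted by the liver, ranged from 6.06 to 33.0 CPM and from 14.6 to 42.1 CPM (0.53 ± 0.35, adjusted p = 0.205), with a spread within each group wider than the difference between their medians of 16.3 and 21.2 CPM.

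Peroxisomal genes were mostly called higher. The list of peroxisomal oxidation and transport had 26 tested genes (27 listed), and 16 of them rose and 5 fell, with a median of 0.46. Acaa1a, the peroxisomal thiolase on chromosome 9, lay between 209 and 281 CPM in vehicle animals and between 574 and 676 CPM in treated animals (1.35 ± 0.07, adjusted p = 7.70e-14). The small spread within both groups gave it one of the smallest p-values among the members. Acot8, a peroxisomal thioesterase, went from 35.5 ± 6.65 to 91.9 ± 4.10 CPM (SD, n = 7 each, adjusted p = 8.93e-10). Eci2, an enoyl-CoA isomerase, went from 407 ± 52.9 to 727 ± 23.8 CPM, and Mlycd, malonyl-CoA decarboxylase, from 123 ± 8.04 to 215 ± 12.6 CPM, neither with any overlap between groups. Lower members included Phyh, the enzyme of phytanic acid alpha-oxidation (-0.37 ± 0.08, adjusted p = 0.00019), with overlap between the groups. Cat, which degrades the hydrogen peroxide made by peroxisomal oxidases, was also lower, at 3351 ± 207 against 4132 ± 362 CPM (-0.30 ± 0.08, adjusted p = 0.0019). Without vehicle animals 74, 76 and 78 the Cat call was lost (-0.22, adjusted p = 0.0514).

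Peroxins build the organelle and import its enzymes. Of 15 tested Pex genes, 12 rose and 0 fell, with a median of 0.42. Pex16, a membrane protein assembly factor, lay between 73.6 and 100.2 CPM under vehicle and between 176 and 226 CPM after WY-14643 (1.09 ± 0.10, adjusted p = 4.33e-10). Pex5, the import receptor for most matrix enzymes, went from 159 ± 13.6 to 275 ± 12.6 CPM. Pex19, the chaperone of peroxisomal membrane proteins, went from 182 ± 41.3 to 347 ± 28.6 CPM, and Pex14, the docking factor, from 69.2 ± 12.9 to 130.3 ± 10.3 CPM. None of these 4 overlapped between groups. Summed over the list, Pex genes held 911 to 1343 CPM in vehicle animals and 1871 to 2152 CPM in treated animals.

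In the wider list of omega-hydroxylation and aldehyde oxidation, 8 of 16 rose and 2 fell (median 0.23), and 3 rose with only vehicle animals 74, 76 and 78. Aldh3a2, a fatty aldehyde dehydrogenase, rose from 890.5 ± 296 to 1864 ± 285 CPM (1.07 ± 0.20, adjusted p = 5.13e-05). Cyp4f17 went from 10.3 ± 3.10 to 19.3 ± 4.39 CPM with overlap. The fall of Cyp4f14, another member of that hydroxylase family, was as clear as the rise of Aldh3a2, from 209.7 to 307 CPM down to 122 to 161 CPM (-0.88 ± 0.11, adjusted p = 1.36e-07). The family therefore did not move in 1 direction.

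In mitochondria, 15 of 19 fatty acid oxidation genes rose and 1 fell (median 0.56). Eci1 lay between 276 and 329 CPM under vehicle and between 561 and 594 CPM after treatment (0.93 ± 0.08, adjusted p = 6.05e-10). Etfb, which passes electrons from the acyl-CoA dehydrogenases to the respiratory chain, went from 373 ± 22.8 to 682 ± 39.5 CPM. Acadvl, the very long chain acyl-CoA dehydrogenase, went from 675 ± 52.1 to 1069.7 ± 51.2 CPM, and Acaa2, the last thiolase, from 1344 ± 79.2 to 2046 ± 107 CPM. These 4 genes showed complete separation of the groups with changes under 1 on the log2 scale. The member that fell was Acadsb, a dehydrogenase for short branched acyl-CoA that serves isoleucine breakdown, from 263 ± 16.1 to 163 ± 8.33 CPM (-0.69 ± 0.08, adjusted p = 1.71e-08).

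The carnitine shuttle carries long fatty acids across the inner membrane. Of 7 tested members (9 listed), 4 rose and 0 fell, with a median of 0.85. Slc22a5, the plasma membrane carnitine importer, lay between 31.0 and 112 CPM (median 91.8 CPM) in vehicle animals and between 226 and 277 CPM (median 266 CPM) in treated animals (1.68 ± 0.23, adjusted p = 8.48e-07). The carnitine-acylcarnitine exchanger Slc25a20 went from 245 ± 59.8 to 464 ± 26.2 CPM and Cpt2, on the inner face of the membrane, from 347 ± 89.2 to 625 ± 24.5 CPM. Cpt1b, known as the muscle isoform of the outer enzyme, went from at most 0.443 CPM in vehicle animals to 0.658 to 1.85 CPM in treated animals (2.37 ± 0.34, adjusted p = 1.26e-06), while its liver counterpart Cpt1a did not pass. Without animals 74, 76 and 78 the Cpt1b value was 2.98.

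Acyl-CoA thioesterases release free fatty acid and coenzyme A. Of 13 tested, 10 rose and 0 fell, and the median of 0.96 was close to that of the textbook targets. Several of these genes form a cluster on chromosome 12, where Acot2 (83987861 to 83993873) and Acot1 (84009490 to 84018371) lie next to Acot4 (84038379 to 84048601, GRCm38). Acot1, the cytosolic enzyme, lay between 102 and 562 CPM (median 414 CPM) under vehicle and between 1148 and 1541 CPM (median 1328 CPM) after WY-14643 (1.87 ± 0.38, adjusted p = 0.000215). Acot2, the mitochondrial enzyme, lay between 17.1 and 164 CPM (median 101 CPM) and between 479.8 and 634 CPM (median 583 CPM), a 6.05-fold rise (adjusted p = 4.48e-05). Vehicle animals 31 and 37 were the 2 lowest for both genes, at 102 and 174 CPM for Acot1 and 17.1 and 28.5 CPM for Acot2. Acot5 was nearly silent in vehicle animals, from 0 to 0.570 CPM, and reached 1.52 to 3.40 CPM in treated animals (3.67 ± 0.42, adjusted p = 3.35e-08). Vehicle animal 32 was the highest of its group, and without it the log2 fold change was 4.29 (adjusted p = 8.26e-09). The Acot cluster holds near-identical copies, so the levels of Acot1 to Acot6 are likewise uncertain. Acot7, which lies outside that cluster, went from 22.6 ± 1.57 to 37.0 ± 2.41 CPM (0.71 ± 0.07, adjusted p = 4.40e-09).

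PPARa binds with RXR at a direct repeat spaced by 1 base. The letters GGNCANAGGNC, the inner part of that repeat, were searched on both strands of RefSeq promoters (GRCm38.p6, 250 bases before to 50 bases after the start site), and the longer AGGNCANAGGNCA was searched as well. The short form was present in 702 of 32851 promoters (2.14%), in 302 of 12065 promoters of tested genes (2.503%), in 2 of 254 promoters of genes raised by at least 1 (0.787%) and in 7 of 305 promoters of genes lowered by at least 1 (2.30%). The longer form contains the shorter one and was present in 0.381% of all promoters and in none of the promoters of either set. Of the 12 textbook targets, 6 had a promoter in the table, and 0 of these 6 held the short form within the window. Both raised genes with a match, Acot4 and Myh7b, were named after their values were seen. The Acot4 promoter is shown because the gene belongs to the thioesterase cluster above. It spans chr12:84038129-84038428 on the plus strand, with the letters in capitals on the minus strand, 12 bases before the start site.
Acot4 promoter: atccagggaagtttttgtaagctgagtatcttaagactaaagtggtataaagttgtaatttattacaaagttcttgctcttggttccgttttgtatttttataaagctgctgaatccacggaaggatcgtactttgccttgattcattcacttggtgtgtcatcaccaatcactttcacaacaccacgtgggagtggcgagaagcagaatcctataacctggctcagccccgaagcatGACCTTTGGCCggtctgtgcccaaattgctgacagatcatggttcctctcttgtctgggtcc
Acot4 itself, a peroxisomal thioesterase, lay between 31.8 and 154 CPM (median 114 CPM) in vehicle animals and between 235 and 415 CPM (median 305 CPM) in treated animals (1.55 ± 0.31, adjusted p = 0.000153). A match of letters is a description of this window and shows no binding.

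Among 19 tested genes of fatty acid uptake, binding and activation (20 listed), 11 rose and 2 fell (median 0.41). Slc27a1, a fatty acid transport protein best known from muscle and fat, lay between 3.94 and 6.61 CPM under vehicle and between 20.8 and 29.6 CPM after treatment (2.29 ± 0.15, adjusted p = 3.73e-12). Slc27a4 went from 51.3 ± 4.91 to 99.1 ± 11.1 CPM, and Slc27a2, a transporter and very long chain acyl-CoA synthetase of liver, from 2563 ± 208 to 3583 ± 97.3 CPM. Fabp4, the lipid chaperone of adipocytes and macrophages, lay between 2.84 and 5.98 CPM in vehicle animals and between 12.6 and 49.4 CPM in treated animals (2.65 ± 0.31, adjusted p = 1.09e-07). The medium chain acyl-CoA synthetases Acsm1 and Acsm5 fell by 0.40 and 0.47 on the log2 scale (adjusted p = 1.81e-06 and 9.43e-05).

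Lipid droplet genes gave 14 rises and 2 falls among 21 tested (22 listed), with a median of 0.89 and 9 rises of at least 1. Cidec, which fuses droplets, lay between 2.43 and 5.09 CPM in vehicle animals and between 25.3 and 78.1 CPM in treated animals, an 11.7-fold rise (adjusted p = 2.94e-10). Lipases of stored fat rose as well. Pnpla2, the triglyceride lipase, went from 75.0 ± 10.1 to 205 ± 24.0 CPM (adjusted p = 3.37e-10), and Mgll, the monoglyceride lipase, from 576 ± 141 to 1779.9 ± 159.7 CPM (adjusted p = 5.09e-09). Hsd17b11, a droplet-bound dehydrogenase, lay between 345 and 572 CPM and between 1216 and 1458 CPM (1.47 ± 0.10, adjusted p = 1.31e-11). Cideb, the hepatocyte member of the Cide family that serves lipoprotein lipidation, fell from 53.9 ± 2.06 to 46.0 ± 1.68 CPM (-0.23 ± 0.05, adjusted p = 0.000593). Of 6 adipocyte markers, none passed the filter, their summed level was at most 0.387 CPM in any vehicle animal and 0.877 CPM in any treated animal, Adipoq did not exceed 0.187 CPM, and Lep and Retn were at 0 in all 14 libraries.

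In pyruvate and citric acid cycle genes, 13 of 27 rose and 4 fell (median 0.16). The pyruvate dehydrogenase kinases moved in opposite directions. Against the rise of Pdk4, Pdk1 fell from 134 ± 23.1 to 83.5 ± 12.9 CPM (-0.68 ± 0.14, adjusted p = 0.000107), without overlap. Idh3a, a subunit of isocitrate dehydrogenase, went from 47.8 ± 5.15 to 74.4 ± 5.82 CPM, and Mdh2, mitochondrial malate dehydrogenase, from 217 ± 11.0 to 310.1 ± 16.0 CPM.

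For ketone bodies, 5 of 8 genes rose and 2 fell (median 0.35), and 3 rose without vehicle animals 31 and 37. Slc16a1, a monocarboxylate exporter, went from 143 ± 58.9 to 321 ± 33.5 CPM (1.17 ± 0.23, adjusted p = 0.000101). Ketone use is minor in liver, and Oxct1, its rate-limiting enzyme, stood at 9.04 ± 0.819 CPM under vehicle and fell to 6.37 ± 1.04 CPM (-0.51 ± 0.13, adjusted p = 0.00168). In the coenzyme A list, 6 of 10 rose and 1 fell (median 0.26). Ppcs, the second enzyme of coenzyme A synthesis, lay between 16.5 and 25.9 CPM and between 47.5 and 72.9 CPM (1.53 ± 0.11, adjusted p = 3.82e-11).

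The genes of the receptor and its main partner did not pass. Ppara lay at 561 ± 80.8 CPM under vehicle and 485 ± 46.7 CPM after WY-14643 (-0.21 ± 0.09, adjusted p = 0.06), and Rxra at 486 ± 45.3 and 466 ± 52.4 CPM (-0.06 ± 0.08, adjusted p = 0.508). Both genes were named after their values were seen. In the list of PPARs, RXRs and coregulators, 4 of 19 rose and 8 fell (median -0.11), and 7 rose with the trend on transcript length removed. The median exon length of this list was 7895 bases, against 4414 over all tested genes. Of 3127 genes in the longest of 4 bins by exon length, 1378 fell and 413 rose. How far the falls of this list go with length was not tested. Rxrb rose from 31.5 ± 1.93 to 45.1 ± 2.63 CPM (0.52 ± 0.07, adjusted p = 5.99e-07). Creb3l3, a membrane-bound transcription factor that works with PPARa in fasting, lay between 368 and 557 CPM and between 729.8 and 855 CPM (0.73 ± 0.09, adjusted p = 1.31e-07). Coactivators accounted for the 4 falls of smallest p. Ppargc1a, the inducible coactivator of fasting, lay between 6.80 and 23.1 CPM (median 17.3 CPM) in vehicle animals and between 2.38 and 5.67 CPM (median 3.78 CPM) in treated animals (-2.01 ± 0.27, adjusted p = 7.45e-07). Every treated animal was below every vehicle animal. Ncoa2 fell from 82.0 ± 6.43 to 51.5 ± 3.59 CPM, Ep300 from 40.0 ± 2.77 to 27.1 ± 4.03 CPM and Crebbp from 23.2 ± 2.00 to 17.2 ± 1.50 CPM.

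Lipid synthesis showed no common direction. For triglycerides and phospholipids, 7 of 16 tested genes rose and 2 fell (median 0.07). Mogat1, a monoacylglycerol acyltransferase, went from 7.52 ± 3.84 to 27.5 ± 6.997 CPM (1.87 ± 0.29, adjusted p = 5.46e-06) and Agpat6 from 229.8 ± 30.0 to 426 ± 30.3 CPM (0.89 ± 0.08). Lpin1, a phosphatidate phosphatase and coregulator, lay between 148 and 711 CPM under vehicle and between 35.2 and 179 CPM after treatment (-2.23 ± 0.41, adjusted p = 5.86e-05). Its groups overlapped, and vehicle animals 31 and 37 were its highest animals at 711 and 705 CPM. In de novo lipogenesis, 2 of 14 rose and 1 fell (median -0.19). Acly, which makes cytosolic acetyl-CoA, fell from 297 ± 91.6 to 134 ± 30.4 CPM (-1.14 ± 0.23, adjusted p = 0.000141), while Me1, which supplies NADPH, rose from 267 ± 112 to 508 ± 143 CPM (0.93 ± 0.23, adjusted p = 0.00116). Mttp, which loads lipid onto apolipoprotein B, rose from 645 ± 137 to 1005 ± 39.7 CPM (0.64 ± 0.11, adjusted p = 2.82e-05). Apob itself fell from 9642 ± 834 to 6017 ± 897 CPM (-0.68 ± 0.12, adjusted p = 1.52e-05).

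Cholesterol genes, from synthesis to uptake, gave 0 rises and 9 falls in 24 (median -0.34), and 3 fell with only vehicle animals 74, 76 and 78. Sc5d, a late desaturase of the pathway, fell from 664 ± 215 to 304 ± 93.7 CPM (-1.13 ± 0.23, adjusted p = 0.000155). Stard4, a sterol carrier, fell from 129 ± 22.9 to 73.4 ± 11.4 CPM (-0.81 ± 0.11, adjusted p = 4.60e-07), and Insig1, a sterol sensor partner, from 313 ± 97.9 to 181 ± 44.7 CPM (-0.79 ± 0.18, adjusted p = 0.000664).

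Bile acid genes fell in larger numbers, with 12 of 21 lower and 1 higher (median -0.36). Akr1d1, the steroid 5-beta-reductase of bile acid synthesis, lay between 131 and 186 CPM (median 145 CPM) in vehicle animals and between 19.8 and 46.5 CPM (median 35.7 CPM) in treated animals (-2.17 ± 0.23, adjusted p = 1.63e-08). The groups were far apart. Slc10a1, the sodium-coupled bile acid importer of the sinusoidal membrane, fell from 786 ± 88.6 to 470.2 ± 35.7 CPM (-0.74 ± 0.09, adjusted p = 1.45e-07). The organic anion importers fell too, Slco1a1 from 873 ± 56.9 to 407 ± 48.8 CPM and Slco1a4 from 54.5 ± 22.6 to 8.72 ± 3.85 CPM (-2.65 ± 0.32, adjusted p = 2.04e-07).

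The list of urea cycle and amino acid catabolism had 26 of 41 members lower and 3 higher, with a median of -0.50 and 9 falls of at least 1. Cps1, the mitochondrial enzyme that commits ammonia to the urea cycle (GRCm38 chromosome 1, 67123026 to 67231259), lay between 2257 and 2834 CPM (median 2507 CPM) under vehicle. After WY-14643 it lay between 474 and 802 CPM (median 579 CPM), and the log2 fold change was -2.03 ± 0.17 (adjusted p = 2.32e-10). The highest treated animal, 25, stood at 802 CPM and the lowest vehicle animal, 32, at 2257 CPM, so the groups were far apart. Gls2, the liver glutaminase that feeds it ammonia, fell from 278 ± 52.2 to 99.5 ± 17.5 CPM (-1.48 ± 0.14, adjusted p = 2.44e-09). Hal, histidine ammonia-lyase, fell from 199 ± 18.3 to 90.8 ± 14.4 CPM, and Kynu, kynureninase, from 258 ± 25.2 to 134 ± 8.49 CPM. The 14 animals split by treatment without overlap in all 4. Among the members that rose was Bckdk, the kinase that inhibits branched chain keto acid breakdown, from 11.5 ± 0.865 to 17.4 ± 2.20 CPM (0.59 ± 0.11, adjusted p = 2.86e-05). Summed over the list, the level went from 26064 to 32126 CPM in vehicle animals to 19227 to 22772 CPM in treated animals.

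**Figure D3:**
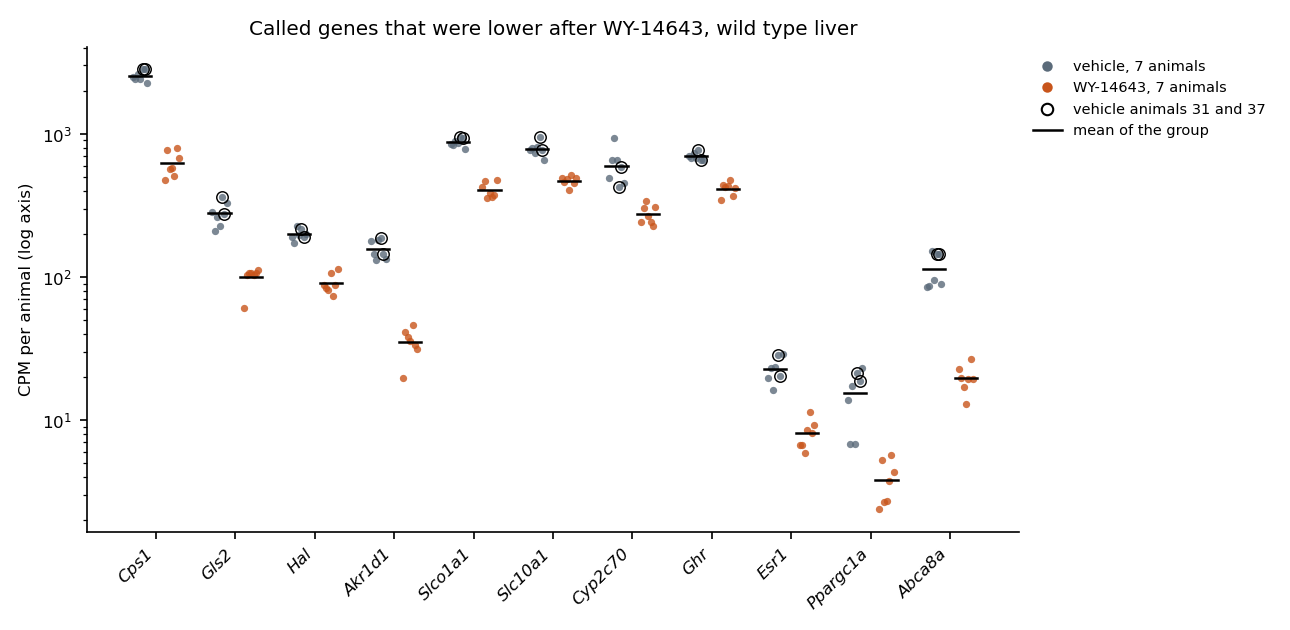
CPM per animal on a log axis for 11 genes that fell, from urea cycle, amino acid, bile acid, drug metabolism and hormone lists, with a black line at each group mean. In each of the 11 genes all 7 treated animals (orange) lie below all 7 vehicle animals (grey), and the ringed vehicle animals 31 and 37 lie among the other vehicle animals or at their edge.

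Cps1, Gls2 and Hal are also markers of the periportal hepatocytes that border the incoming blood. Of 15 periportal genes, 11 fell and 1 rose (median -0.42), and of 16 pericentral genes, 7 fell and 3 rose (median -0.22). Igfbp2 was the periportal gene that rose, from 338 ± 149.8 to 682 ± 181 CPM (1.02 ± 0.26, adjusted p = 0.00176), with overlap. Pericentral Cyp2e1 fell from 8103 ± 1412 to 5995 ± 616 CPM (-0.43 ± 0.10, adjusted p = 0.000576). With only vehicle animals 74, 76 and 78, 0 pericentral genes rose. Glucose genes were divided, with 9 of 21 tested higher and 8 lower (median -0.12). Slc2a2, the glucose transporter of hepatocytes, fell from 379 ± 65.1 to 192 ± 24.4 CPM (-0.98 ± 0.11, adjusted p = 2.62e-08), and Pklr, liver pyruvate kinase, from 113 ± 24.9 to 64.7 ± 12.4 CPM. Both glycerol phosphate dehydrogenases rose, Gpd1 from 490.1 ± 102 to 790.4 ± 111 CPM and Gpd2 from 101 ± 32.7 to 180.0 ± 27.3 CPM.

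Drug metabolism genes were mostly lower. Of 23 tested P450 genes (26 listed), 16 fell and 1 rose (median -0.53). Cyp3a25 fell from 599 ± 86.9 to 314 ± 35.8 CPM (-0.93 ± 0.13, adjusted p = 9.96e-07), Cyp2c70 from 599 ± 174 to 276 ± 43.2 CPM and Cyp2c29 from 1858 ± 353 to 1019 ± 135 CPM. Cyp2c genes have close copies, so these values are uncertain between members. The member that rose was Por, the reductase that supplies all microsomal P450s with electrons, from 388 ± 64.6 to 694 ± 114 CPM (0.84 ± 0.14, adjusted p = 1.23e-05). Cyp2b10, the classic target of the receptor CAR, lay between 2.27 and 21.6 CPM under vehicle and between 0.212 and 1.32 CPM after WY-14643 (-3.40 ± 0.64, adjusted p = 7.32e-05). Vehicle animal 31 was the highest at 21.6 CPM, and without it the value was -2.81. Without both 31 and 37 it was -2.61. In conjugation, 12 of 28 tested fell and 4 rose (median -0.29). The sulfotransferase Sult1d1 fell from 152 ± 37.9 to 63.6 ± 13.5 CPM and Ugt2a3, a glucuronosyltransferase, from 309 ± 29.8 to 168 ± 20.8 CPM. Gstt2, a theta class glutathione transferase, rose from 120.3 ± 10.6 to 239.5 ± 15.5 CPM (0.99 ± 0.08, adjusted p = 1.73e-10).

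Genes of the acute phase, complement and coagulation, secreted by hepatocytes into plasma, were called lower more often than higher. None of 24 acute phase genes rose and 12 fell (median -0.91). Saa4, the constitutive serum amyloid, fell from 302 ± 102 to 105 ± 19.4 CPM (-1.52 ± 0.24, adjusted p = 9.07e-06), and Serpina3n, a protease inhibitor, from 345 ± 88.1 to 145 ± 37.0 CPM (-1.25 ± 0.22, adjusted p = 2.37e-05). Vehicle animals 37 and 31 were the highest for both, at 468 and 411 CPM for Saa4 and at 469 and 449 CPM for Serpina3n. The other vehicle animals lay between 208 and 292 CPM and between 231 and 370 CPM. Crp fell from 325 ± 54.8 to 174 ± 19.4 CPM and Fgb, the fibrinogen beta chain, from 3847 ± 734 to 1974 ± 169 CPM. Complement and coagulation gave 21 falls and 2 rises among 34 tested (36 listed), with a median of -0.47. Serpind1, heparin cofactor II, fell from 627 ± 28.8 to 348 ± 15.7 CPM (adjusted p = 4.66e-10), F5, coagulation factor V, from 565 ± 45.9 to 310.2 ± 41.9 CPM and Masp1, a lectin pathway protease, from 93.6 ± 6.16 to 54.9 ± 3.82 CPM. In the list of apolipoproteins and lipoprotein assembly, 4 of 17 were higher and 4 lower (median 0.04). Both counts lay below the shares over all tested genes, 27.4% and 26.7%. Of 10 hepatocyte markers, some of which, such as Cps1 and Fgb, are counted above, 8 fell. Their summed level was 115219 to 147800 CPM in vehicle and 89525 to 102236 CPM in treated animals. Alb made up most of this sum, at 61976 to 85318 CPM in vehicle and 50534 to 59116 CPM in treated animals. The Alb call was lost without vehicle animals 74, 76 and 78 (-0.38, adjusted p = 0.0549). Trf lost its call in several alternatives, among them without 31 and 37 (-0.26, adjusted p = 0.117). A lower share of counts from hepatocytes and less of each transcript per hepatocyte cannot be told apart in bulk liver.

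Of 25 interferon-stimulated genes, 18 fell and 1 rose (median -0.74). Mx2, an antiviral GTPase, lay between 3.84 and 18.0 CPM (median 5.96 CPM) in vehicle animals and between 1.46 and 2.45 CPM (median 2.06 CPM) in treated animals (-1.89 ± 0.27, adjusted p = 1.25e-06). Ifit1, which binds viral RNA, lay between 3.21 and 16.9 CPM and between 1.75 and 2.90 CPM (-1.53 ± 0.33, adjusted p = 0.000367). Vehicle animal 76 was the highest for both, at 18.0 and 16.9 CPM. Irgm1, an immunity-related GTPase, ranged from 36.9 to 89.2 CPM and from 23.7 to 26.2 CPM (-0.90 ± 0.16, adjusted p = 2.22e-05). Leaving out vehicle animals 74, 76 and 78 lowered the count from 18 to 10. Restricting the test to genes with a mean of at least 5 CPM left 9 lower. The apolipoprotein L genes Apol9a and Apol9b, near copies of each other, are named here as 2 of the 15 largest falls. Apol9b lay between 8.20 and 87.3 CPM, with animal 76 the highest, against 2.80 to 8.08 CPM (-2.44 ± 0.39, adjusted p = 1.13e-05), and without animal 76 the value was -1.80. Apol9a changed by -2.81 ± 0.65 (adjusted p = 0.000789), with overlap, and by -1.42 without animal 76. Antigen presentation genes gave 1 fall in 16, B2m, from 1807 ± 163 to 1378 ± 107 CPM (-0.39 ± 0.09, adjusted p = 0.000439).

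Genes of protein synthesis and degradation were called higher far more often than lower. Of 25 proteasome subunits, 24 rose and 0 fell, with a median of 0.45. Psmd4, a ubiquitin receptor of the lid base, lay between 103 and 149 CPM under vehicle and between 257 and 302 CPM after WY-14643 (1.09 ± 0.09, adjusted p = 2.98e-10). Psmb5, the chymotrypsin-like subunit, went from 13.6 ± 0.843 to 24.4 ± 2.01 CPM. Cytosolic ribosomal proteins gave 24 rises and 0 falls in 30, with a median of 0.51. Rpl18 lay between 13.8 and 17.6 CPM and between 29.7 and 41.2 CPM (1.08 ± 0.08, adjusted p = 5.38e-11), Rplp2 at 32.2 ± 1.95 and 66.6 ± 7.63 CPM, and Rps9 at 114 ± 7.73 and 184 ± 10.7 CPM. Ribosomal protein genes have many processed copies, and only uniquely placed reads were counted, so their levels are partial. Nuclear-encoded respiratory chain genes gave 20 rises and 0 falls in 27, with a median of 0.30. Cox6a1 went from 187 ± 7.30 to 316 ± 28.1 CPM (0.76 ± 0.07, adjusted p = 1.87e-09) and Cox4i1, another subunit of cytochrome oxidase, from 324 ± 17.8 to 506 ± 38.9 CPM.

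Transcript length moved with these groups. With tested genes split into 4 equal bins by exon length in GENCODE M21 (GRCm38), the shortest bin had a median log2 fold change of 0.176 with 1302 rises and 432 falls, and the longest bin had -0.204 with 413 rises and 1378 falls. The median exon length was 1918.5 bases in the ribosomal list, 2276 in the respiratory list and 2808 in the proteasome list, against 4414 over all tested genes. With the trend on length removed in each library, the ribosomal list gave 19 rises and 2 falls, the respiratory list 16 and 2, and the proteasome list 24 and 0. Over all genes it gave 3381 rises and 3148 falls, with 83.9% of the rises and 79.6% of the falls called before among them.

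**Figure D4:**
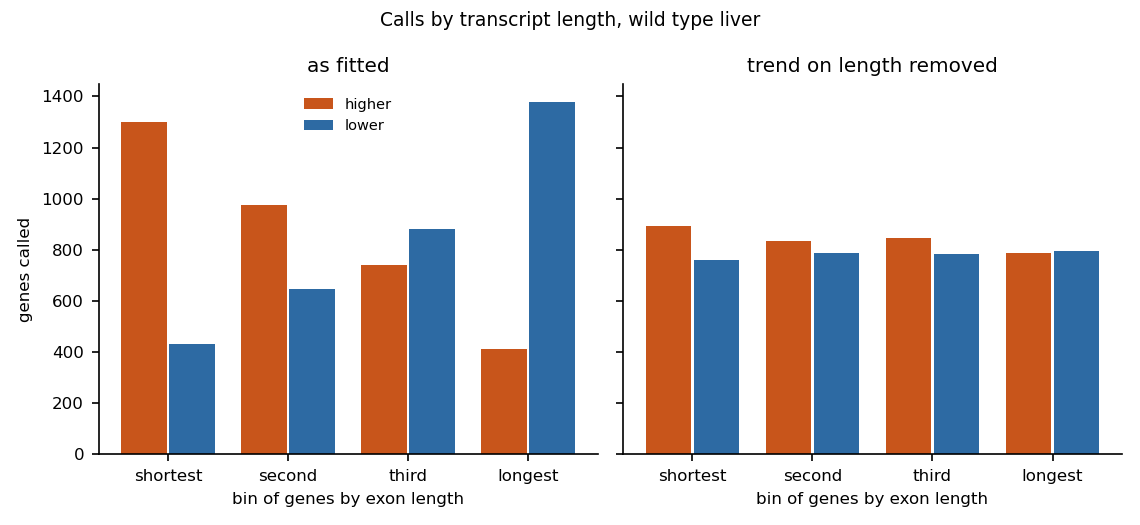
Genes called higher (orange) and lower (blue) in 4 equal bins of the tested genes by exon length, as fitted (left) and with the trend on length removed (right), on a linear axis of gene counts. As fitted, the split runs from 1302 against 432 in the shortest bin to 413 against 1378 in the longest, and with the trend removed it runs from 891 against 760 to 787 against 795.

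Heat shock genes and genes of the unfolded protein response were counted as separate lists. Of 16 heat shock genes, 11 rose and 0 fell (median 0.38). Hsp90aa1, the inducible Hsp90, went from 100.1 ± 22.7 to 194 ± 17.3 CPM (0.95 ± 0.13, adjusted p = 5.14e-07), and Hspe1, the mitochondrial co-chaperonin, from 67.5 ± 7.48 to 127 ± 9.91 CPM (adjusted p = 1.51e-09). Of 23 genes of the unfolded protein and integrated stress response, 12 fell and 3 rose (median -0.24). Edem1, which sends misfolded glycoproteins to degradation, fell from 222 ± 9.64 to 147 ± 11.3 CPM (-0.59 ± 0.06, adjusted p = 1.17e-08), and Canx, a lectin chaperone, from 594 ± 38.2 to 438 ± 25.1 CPM. Creb3l3, listed here as well, and the transcription factor Atf4 rose, Atf4 from 85.5 ± 8.85 to 105 ± 6.33 CPM (0.30 ± 0.08, adjusted p = 0.00181).

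**Figure D5:**
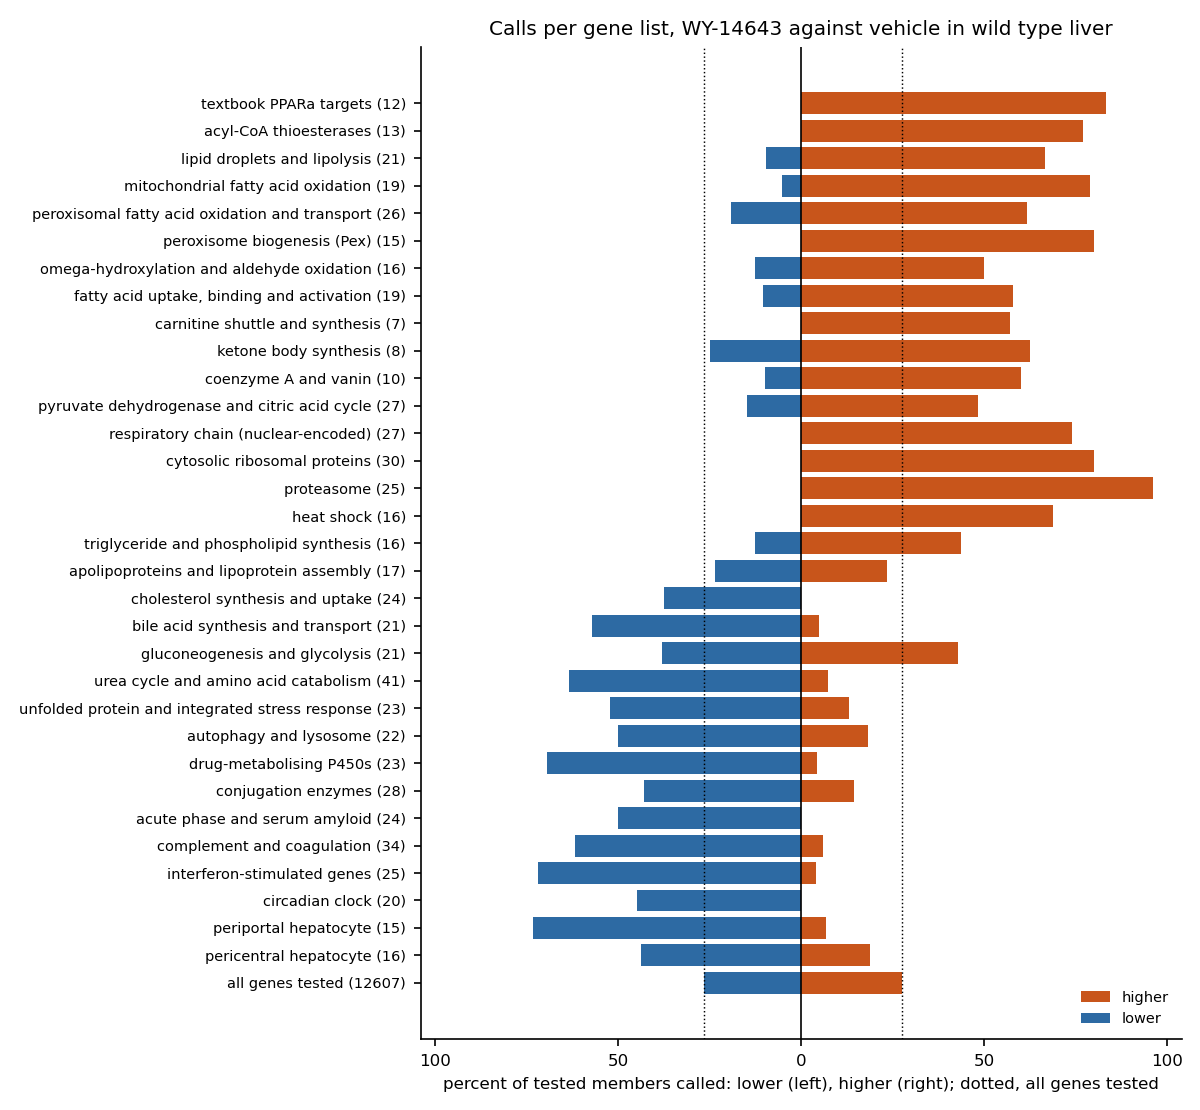
Percent of tested members called higher (right, orange) and lower (left, blue) in 32 gene lists and over all tested genes, with the number tested in brackets and dotted lines at the shares over all genes, 27.4% higher and 26.7% lower. Fatty acid, peroxisome, ribosome and proteasome lists lie to the right, and amino acid, P450, complement, interferon and periportal lists to the left.

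Hormone and clock genes changed in parts. In the growth hormone, IGF and insulin list, 7 of 17 tested fell and 5 rose (median -0.26). Ghr, the growth hormone receptor, fell from 697 ± 43.2 to 415 ± 44.2 CPM (-0.75 ± 0.08, adjusted p = 2.23e-08), and Igf1, its main secreted product, from 763 ± 83.1 to 491 ± 76.3 CPM. Igfbp1, a fasting-induced binding protein, lay between 20.5 and 52.2 CPM and between 30.8 and 153 CPM (1.37 ± 0.36, adjusted p = 0.00219), and with only animals 74, 76 and 78 as vehicle it did not pass (1.12, adjusted p = 0.081). Among nuclear receptors and hepatocyte factors, 9 of 24 fell and 4 rose (median -0.18). Esr1, the oestrogen receptor, fell from 22.9 ± 4.67 to 8.12 ± 1.89 CPM (-1.49 ± 0.20, adjusted p = 6.49e-07), Ahr, the dioxin receptor, from 58.6 ± 8.67 to 30.5 ± 7.12 CPM, and Nr5a2, a regulator of bile acid synthesis genes, from 74.8 ± 7.47 to 40.1 ± 4.01 CPM (adjusted p = 5.33e-10). Esrra, a regulator of mitochondrial genes, rose from 27.99 ± 3.47 to 41.9 ± 4.82 CPM (0.58 ± 0.09, adjusted p = 2.65e-06).

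Of 20 clock genes, 9 fell and 0 rose (median -0.58). Rora, an activator of Arntl, fell from 22.9 ± 3.05 to 13.7 ± 1.49 CPM without overlap (-0.74 ± 0.09, adjusted p = 1.33e-07), and Nfil3, a repressor of the output arm, from 26.4 ± 7.29 to 13.2 ± 4.27 CPM with overlap (-0.99 ± 0.24, adjusted p = 0.00109). Dbp, a strongly cycling output gene named after its values were seen, ranged from 6.71 to 80.6 CPM among vehicle animals and from 10.1 to 58.1 CPM among treated animals and did not pass (-0.34 ± 0.47, adjusted p = 0.562). A score of mean log2 CPM of Dbp and Gm129 (Ciart) minus that of Arntl and Npas2 ran from -1.17 to 5.73 (median 1.82) in vehicle animals and from -0.83 to 5.28 (median 2.93) in treated animals. The groups overlapped on this score, and with it as a covariate 3546 genes rose and 3410 fell. The time of day of the gavage is not given. Vehicle animals 37 and 31 had the highest vehicle scores, at 5.73 and 4.75, and they were the same animals that had the lowest Pdk4, at 8.28 and 4.85 CPM. Without them 8 clock genes fell.

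Several of the 15 largest rises among genes with at least 5 CPM in treated animals stand outside the metabolic lists. Lamb3, a laminin chain of basement membranes, lay between 12.5 and 55.6 CPM in vehicle animals and between 169.7 and 250.2 CPM in treated animals (2.86 ± 0.37, adjusted p = 4.83e-07). Cxcr1, a chemokine receptor known from neutrophils, lay between 0.110 and 0.974 CPM and between 5.30 and 9.71 CPM (3.62 ± 0.32, adjusted p = 5.83e-10). Beside it, 0 of 7 tested neutrophil and monocyte markers rose, 1 fell, and their summed level was 6.55 to 12.0 CPM in vehicle and 5.32 to 7.67 CPM in treated animals. Adamts15, a secreted metalloprotease, went from 0.834 ± 0.195 to 11.1 ± 7.56 CPM (3.71 ± 0.42), Cpne5, a calcium-dependent phospholipid-binding copine, from 3.31 ± 2.92 to 40.5 ± 13.8 CPM (3.60 ± 0.47), and Cbfa2t3, a transcriptional corepressor, from 12.3 ± 6.65 to 81.8 ± 12.9 CPM (2.73 ± 0.29). The value for Cpne5 was 5.00 without vehicle animals 74, 76 and 78 and 2.74 with only those 3, and that for Cbfa2t3 was 3.35 without them. Fbp2, the muscle isoform of fructose bisphosphatase, went from 3.23 ± 1.61 to 21.1 ± 2.78 CPM (adjusted p = 2.18e-08), and Clstn3, a calsyntenin, from 20.9 ± 11.8 to 109.7 ± 22.8 CPM (adjusted p = 3.76e-06). The stress-inducible Gadd45b went from 3.36 ± 1.09 to 18.1 ± 5.10 CPM (2.43 ± 0.24, adjusted p = 5.19e-09), and its relative Gadd45g from 7.73 ± 3.49 to 41.1 ± 32.8 CPM (2.41 ± 0.40), with treated animal 19 at 113 CPM. Dlec1 went from 0.917 ± 0.257 to 5.80 ± 2.18 CPM. The call of Cish, an inhibitor of cytokine receptor signalling, rested on that same animal 19, at 35.2 CPM against 0.565 to 2.91 CPM in the other 6, and the change of 2.42 ± 0.87 (adjusted p = 0.0212) became 0.33 (adjusted p = 0.696) without it.

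Among the 15 largest falls, Abca8a, a lipid transporter, lay between 85.5 and 151 CPM under vehicle and between 13.0 and 26.9 CPM after WY-14643 (-2.53 ± 0.19, adjusted p = 1.34e-10). Upp2, a uridine phosphorylase, lay between 57.7 and 604 CPM and between 8.20 and 65.6 CPM (-3.25 ± 0.57, adjusted p = 3.41e-05). Animals 31 and 37 were its highest at 604 and 526 CPM, and without them the value was -2.52, while it was -2.22 with only 74, 76 and 78. Rgs16, a regulator of G protein signalling induced by fasting, ranged from 7.52 to 154 CPM and from 2.61 to 14.3 CPM (-3.34 ± 0.52, adjusted p = 7.80e-06), and without 31 and 37 the value was -2.73. Map2k6, a kinase upstream of p38, fell from 11.9 ± 8.31 to 2.00 ± 0.564 CPM (-2.56 ± 0.33) and by 1.94 on the log2 scale without 31 and 37 or by 1.91 with only 74, 76 and 78. Mug2, a murinoglobulin with close relatives, fell from 24.5 ± 7.73 to 4.79 ± 1.26 CPM (-2.35 ± 0.34, adjusted p = 2.81e-06). Cxcl1, a neutrophil chemokine, lay between 2.00 and 42.7 CPM, with vehicle animal 37 the highest, and between 0.423 and 1.81 CPM (-2.96 ± 0.89, adjusted p = 0.00697). Without animal 37 it did not pass (-1.78, adjusted p = 0.0659).

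Most markers of other liver cells were not called, and those called were mostly lower. Sinusoidal endothelial markers were called lower above the 26.7% share over all tested genes. Falls among Kupffer cell and macrophage, stellate cell and cholangiocyte markers lay below that share. Of 14 Kupffer cell and macrophage markers, 1 fell and 0 rose (median -0.28), with a summed level of 474 to 607 CPM in vehicle and 352 to 563 CPM in treated animals, and 5 fell when the fit held only the 14 wild type libraries. Of 12 sinusoidal endothelial markers, 5 fell and 0 rose (median -0.22), with sums of 482 to 613 CPM in vehicle and 436 to 498 CPM in treated animals, and 8 fell without vehicle animals 31 and 37 and 3 without 74, 76 and 78. Mrc1, a mannose receptor on this list, went from 84.5 ± 11.0 to 63.1 ± 5.02 CPM with overlap (-0.42 ± 0.09, adjusted p = 0.000245). Stab1 and Stab2, also among the 3 most abundant of these markers, overlapped between groups as well. Stab1 lay between 69.8 and 94.2 CPM under vehicle and between 71.2 and 89.5 CPM after treatment. For Stab2 the ranges were 53.7 to 78.4 CPM and 49.5 to 69.8 CPM. Stellate cell markers gave 1 rise and 2 falls in 10, and cholangiocyte markers 1 fall in 5 tested. T and NK cell markers summed to at most 3.79 CPM and B and plasma cell markers to at most 32.1 CPM in any of the 14 libraries. Of 8 exocrine pancreas markers, Cela1 alone passed the filter, and 4 were at 0 in all 14 libraries.

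Vehicle animals varied more than treated animals. The median SD of log2 CPM within a group was 0.178 under vehicle and 0.156 after WY-14643, and 7365 of 12607 genes had the larger SD in the vehicle group. For 11 of the 12 textbook targets the lowest vehicle animal was 31 or 37. Of the 12, 9 rose without these 2 animals, 10 rose without 74, 76 and 78, and 6 rose with only 74, 76 and 78 as vehicle.

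Whether Sirt6 heterozygotes answered WY-14643 differently from wild type animals was tested as a difference of differences. WY-14643 changed 7024 genes in heterozygotes (55.7%) against 6815 in wild type (54.1%), and 5566 genes were called in the same direction in both, 81.7% of the wild type calls and 79.2% of the heterozygous calls, with 6 called in opposite directions. Heterozygous and wild type libraries of a treatment stand in the same deposited table, so this overlap cannot tell treatment from table. No gene passed for the difference itself at an adjusted p under 0.05 in edgeR, 1182 (9.38%) had an unadjusted p under 0.05, DESeq2 called 3 and limma voom called 1. Without vehicle animals 31 and 37 the count was 207, and with only 74, 76 and 78 as wild type vehicle it was 197. The difference did not pass for any of the 12 textbook targets. Among them, Pdk4 changed by 5.61 there against 3.89 in wild type (unadjusted p of the difference 0.034), Plin2 by 3.06 against 1.92 (0.00571) and Ehhadh by 2.30 against 1.48 (0.0285). Cps1 fell by 1.95 against 2.03 on the log2 scale (0.74). Among all genes the smallest unadjusted p was that of Dyrk2, a kinase, which changed by -0.33 in wild type and 0.35 in heterozygotes. The other 4 genes of smallest p were Proser1, Atxn1, Rqcd1 (Cnot9) and Loxl4.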

How the data were processed

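RNA was sequenced from 28 livers, and 14 of them are reported here. Alignment with STAR 2.5.0a to mm10, counting with HTSeq 0.6.1p1 and use of DESeq2 1.18.1 are named in the submitters' processing notes. Neither gene annotation nor strandedness is given in the sources used here. The deposited values are raw counts per gene symbol, 1 table per treatment, and each holds HTSeq's summary rows. There are 23423 rows for vehicle and 23425 for WY-14643, of which 25 and 27 carry date-like names in place of symbols and were left out. The tables were joined on 23393 symbols, and summary rows stayed out of library sizes. The number of per-sample columns that match no sample was 0.

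Counts of all 4 groups were fitted with edgeR 4.0.16 (R 4.3.3) after filterByExpr, with TMM scaling and the robust quasi-likelihood test on 24 residual degrees of freedom. The standard error is the size of the log2 fold change over the square root of F. CPM uses the TMM library sizes, and log2 CPM for components and scores has a prior count of 2. Alternatives were DESeq2 1.42.0, limma 3.58.1 voom, other filters, the 14 wild type libraries alone, each animal left out, and vehicle animals 74, 76 and 78 removed or used alone, since their numbers stand apart. Removing animals 31 and 37, removing the trend on exon length (loess span 0.5) and a clock covariate were chosen after seeing the data. Exon length came from GENCODE M21, which matched 12507 of the tested genes. Shares of reads were compared by exact permutation over 3432 splits. In simulated counts of 12607 genes, 100 were changed by 0.5 and 100 by 1 on the log2 scale. Of these, 60% of changes of 0.5 and 90% of changes of 1 were recovered, with 5 false calls among 155. The real comparison called 6815 genes, and the simulation held no effect of table or transcript length. Its shares of recovered and false calls therefore do not carry over to the real comparison.

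The 59 lists (48 of pathways, 11 of markers) and the members were chosen with earlier results of these data known, and 1024 of 1030 listed members were found. Genes were named by rule: all textbook targets, the 15 largest rises and falls with at least 5 CPM in the higher group, the 4 called members of smallest p per list and direction, the 3 most abundant of each marker list, Sirt6, and the 5 genes of smallest p between genotypes. Exceptions are marked, and some genes that the rule names are not reported here. Each library is 1 animal, and intervals cover neither cage nor day.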

Additional observations from a re-analysis of the deposited data

Results flagged for a closer look

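In 2 of 88 groups of 7 animals, 1 animal lay far from the other 6, where chance gives about 1 in 20. These groups covered only part of the 312 genes named by the rule, and single animals stood apart in other named genes too. Irgm1, for example, stood at 89.2 CPM in vehicle animal 76 and at 36.9 to 41.8 CPM in the other 6 vehicle animals. Cxcl1 was lowest in treated animal 10, at 0.423 CPM. Cish was highest in treated animal 19, at 35.2 CPM. The rows with date-like names in place of symbols entered no comparison of genes. They held 0.240% of gene counts in treated animals and 0.155% in vehicle animals (exact two-sided permutation test, p = 0.000583, n = 7 each). There were 27 such rows for WY-14643 and 25 for vehicle, so the shares cover unlike sets of rows. The test therefore cannot show a change in any gene, and which genes the rows stand for was not tested.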

How the results depend on the processing

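Over the alternatives that kept all animals or removed animals by number, between 2890 and 3760 genes were higher and between 2620 and 3659 lower. With 1 animal left out, the ranges were 3319 to 3430 higher and 3141 to 3327 lower, 248 to 291 higher by at least 1, and 324 to 375 lower by at least 1. At a mean of at least 5 CPM, which tests fewer genes, 164 were higher and 200 lower by at least 1. The count for the difference between genotypes was 0 to 0 with 1 animal left out, 3 in DESeq2, 1 in limma voom, 197 with only vehicle animals 74, 76 and 78, and 207 without 31 and 37, and the cause was not tested. With 1 animal left out, the treated minus vehicle difference was -1.79 to -1.64 percentage points for reads in no gene, 0.0553 to 0.0639 for ambiguous reads and -0.820 to -0.0530 for reads not placed uniquely, which did not pass. With the trend on length removed, 3 of the named genes that had been called changed sign, Acox3 to 0.0222, Apoa2 to -0.12 and F12 to -0.0236. Of the named genes, 42 lost their call with only vehicle animals 74, 76 and 78, 24 without them, 23 without 31 and 37, and 18 with the trend on length removed. No paired analysis was possible because no animal number occurs in more than 1 group.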

Other observations

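Several lists outside fatty acid metabolism split between rises and falls. In NAD synthesis and use, 3 of 17 tested genes rose and 6 fell, with a median log2 fold change of -0.07. The falls included genes of the route from tryptophan, with Acmsd from 27.0 ± 5.55 to 12.2 ± 2.82 CPM (-1.15 ± 0.19, adjusted p = 1.07e-05) and Kmo from 318 ± 26.2 to 225 ± 16.7 CPM (-0.50 ± 0.07), and Cd38, which consumes NAD, from 23.5 ± 2.56 to 17.3 ± 0.315 CPM (-0.44 ± 0.10, adjusted p = 0.000562). The widest fall of the list was that of Nnmt, which methylates nicotinamide and was named after its values were seen. Nnmt lay between 4.55 and 27.1 CPM in vehicle animals and between 2.37 and 4.67 CPM in treated animals, with overlap (-2.09 ± 0.70, adjusted p = 0.0143). The Nnmt call was lost without vehicle animals 31 and 37 (-1.71, adjusted p = 0.0699) and with only 74, 76 and 78 as vehicle (-0.58, adjusted p = 0.649). The rises were Nmrk1, a nicotinamide riboside kinase, from 22.95 ± 3.01 to 37.6 ± 6.21 CPM (0.71 ± 0.11, adjusted p = 2.27e-06), Naprt1, which uses nicotinic acid, from 92.1 ± 9.22 to 128.5 ± 16.2 CPM, and Nmnat1, which makes NAD in the nucleus, from 13.4 ± 0.841 to 18.1 ± 1.04 CPM. Among 7 sirtuins, which consume NAD, 3 rose and 1 fell. Sirt6 itself was among those called higher, at 2.38 ± 0.615 CPM under vehicle and 3.31 ± 0.685 CPM after WY-14643, with overlap. Its call was lost without vehicle animals 74, 76 and 78 (0.46, adjusted p = 0.0537) and with the trend on length removed (0.37, adjusted p = 0.053). Sirt5, a mitochondrial desuccinylase, rose from 14.8 ± 1.76 to 23.8 ± 1.64 CPM without overlap (0.69 ± 0.10, adjusted p = 1.05e-06), and Sirt1 fell from 18.1 ± 2.02 to 13.5 ± 1.15 CPM (-0.43 ± 0.09, adjusted p = 0.00026). Without vehicle animals 74, 76 and 78, 1 sirtuin rose.

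In autophagy and lysosome genes, 11 of 22 fell and 4 rose (median -0.15). Lamp1, a lysosomal membrane protein, fell from 864.5 ± 26.7 to 685 ± 44.7 CPM, and Ctsl, a lysosomal protease, from 470.0 ± 115 to 302 ± 20.5 CPM (-0.64 ± 0.11, adjusted p = 1.43e-05). Tfeb, a transcription factor of lysosomal genes, rose from 6.33 ± 0.703 to 9.96 ± 0.973 CPM (0.65 ± 0.09, adjusted p = 8.62e-07), and Sqstm1, an autophagy receptor, from 445 ± 35.4 to 593 ± 47.8 CPM. In the Nrf2 list, 4 of 15 tested rose and 4 fell (median -0.28). These counts were close to the shares over all tested genes, 27.4% and 26.7%. Srxn1, which repairs oxidised peroxiredoxin, rose from 56.0 ± 11.1 to 95.5 ± 4.02 CPM (0.77 ± 0.12, adjusted p = 7.58e-06), while Gclm, the modifier subunit of glutathione synthesis, fell from 217 ± 17.5 to 156 ± 9.17 CPM (-0.48 ± 0.06, adjusted p = 1.31e-07). In the p53 list, 6 of 14 rose and 3 fell, with Bax, a pore former of apoptosis, from 11.5 ± 0.946 to 18.3 ± 3.30 CPM and Sesn1, a stress-inducible sestrin, from 20.4 ± 2.41 to 14.0 ± 0.80 CPM.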
